A study of Mus musculus with 6 samples.

Results

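RNA of melanocyte pigment genes was found in libraries made from sorted regulatory T cells (Tregs) of B16.F10 melanoma tumors. *Dct*, *Tyrp1* and *Pmel* had high values there, while *Sox10*, *Mitf* and *Gpr143* had low to middle values. The group described here holds 10 genes of the melanocyte lineage (*Pmel*, *Mlana*, *Dct*, *Tyrp1*, *Tyr*, *Slc45a2*, *Sox10*, *Mitf*, *Trpm1* and *Gpr143*) of 12153 genes in the expression table. The 10 genes were chosen by their names as melanocyte genes and selected on their levels in these same libraries, so the levels and their spread are given as a description with no test. All 10 had a value in all 6 libraries of a table from which the authors had removed genes with low values.

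RNA-Seq was run on Tregs from B16.F10 tumors, a pigmented mouse melanoma line, taken at day 15 after inoculation. Of the 6 libraries, 3 came from control mice, labeled Nr3c1-flox with no Cre named, and 3 came from Nr3c1-Foxp3Cre mice, labeled Nr3c1-flox_Foxp3-YFP/Cre, in which Cre under the *Foxp3* promoter deletes the glucocorticoid receptor gene *Nr3c1* in Tregs. By these labels both groups carry the floxed *Nr3c1* allele, while the expression table names the control libraries WT. Tumors of both groups were digested with Liberase TL and DNase I and depleted of tumor cells on a Percoll gradient before sorting. The labels describe antibodies against CD45, CD4 and CD25, whereas the methods of the study describe CD45.2+CD4+Foxp3-YFP+ cells that lacked markers of myeloid, B and NK cells and of γδ T cells. Control mice without Foxp3-YFP/Cre, as labeled, have no YFP to sort on, so the genotype of the controls is uncertain and a difference in gate between the groups cannot be told apart from genotype. Neither source says whether each library came from 1 mouse or from pooled mice, so p-values measure only the spread between these libraries. The ages of the mice were not given in the sources used here.

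Melanocytes make melanin from tyrosine inside melanosomes, organelles related to lysosomes. Tyrosinase starts the reaction, the related proteins encoded by *Tyrp1* and *Dct* act on later intermediates, fibrils of PMEL hold the pigment, and transporters in the melanosome membrane set its chemistry. The transcription factor MITF switches on many of these genes, and SOX10 acts upstream of MITF in cells that descend from the neural crest. T cells are not known to make melanin, and B16 tumors are black for the pigment they hold.

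Short DNA stretches at the RefSeq transcription starts of 4 of the genes are shown because they hold a sequence that MITF is known to bind, the M-box, whose core is TCATGTG. The RefSeq promoter table (build GRCm38.p6), with windows from 250 bases before to 50 bases after each transcription start, held 8 windows of 5 of the 10 genes (*Dct*, *Tyrp1*, *Tyr*, *Trpm1* and *Mitf*). *Pmel*, *Mlana*, *Slc45a2*, *Sox10* and *Gpr143* had no entry. Capitals mark GTCATGTGCT, the longest run common to the *Tyr*, *Tyrp1* and *Dct* windows, or, in *Trpm1*, the 7-base core alone. The sequences run 5′ to 3′ on the strand of each gene, and lie at chr7:87493513-87493575 (minus strand) for *Tyr*, chr4:80834155-80834184 (plus strand) for *Tyrp1*, chr14:118052349-118052438 (minus strand) for *Dct* and chr7:64153653-64153739 (plus strand) for *Trpm1*.
Tyr: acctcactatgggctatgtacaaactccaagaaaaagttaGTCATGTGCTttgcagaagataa
Tyrp1: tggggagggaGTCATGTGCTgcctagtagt
Dct: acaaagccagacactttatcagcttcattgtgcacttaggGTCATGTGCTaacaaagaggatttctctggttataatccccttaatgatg
Trpm1: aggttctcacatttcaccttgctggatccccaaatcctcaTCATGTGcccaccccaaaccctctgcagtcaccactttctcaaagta

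Distances are counted from the RefSeq starts. The *Tyrp1* stretch lies before its RefSeq start but within an exon of *Tyrp1* in GENCODE M21, so it is not upstream of the gene as that annotation draws it. The capitals began 23 bases before the start of *Tyr*, 48 before that of *Tyrp1*, 152 before that of *Dct* and 142 before that of *Trpm1*. *Dct* held a second core on the other strand, at 232 bases before its start. With both strands searched, GTCATGTGCT was present in 61 of 32851 windows of the table (0.186%), AGTCATGTGCT, shared by *Tyr* and *Tyrp1*, in 7 (0.0213%), and the core TCATGTG in 1239 (3.77%). The E-box CATGTG, which lies within the core, was present in 14.2% of windows, and the E-box CACGTG in 7.15%, among them 1 window of *Trpm1*. The 3 *Mitf* windows held none of these letters. These matches describe the windows only.

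The deposited values were log2 CPM (read counts scaled to library size) after quantile normalization, which gives every library the same set of values, so that a value stands for the rank of a gene within its library. The files gave no read counts, the depth of each library is therefore unknown, and precision rests on the number of libraries (n = 3 per group). *Nr3c1* itself had log2 CPM values of 7.15, 7.59 and 6.88 in control libraries 1 to 3 and 6.14, 5.45 and 5.90 in Nr3c1-Foxp3Cre libraries 1 to 3, without overlap (log2 fold change -1.38, SE 0.21, limma adjusted p = 0.120). All 10 listed markers of Tregs and CD4+ T cells had values, with *Foxp3* at a mean log2 CPM of 3.93. Control library 2 and Nr3c1-Foxp3Cre library 3 stood apart from the other 4 in the pigment genes, as described next, and the spread is given with and without them.

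The enzymes of melanin synthesis come first. *Dct* (dopachrome tautomerase, ENSMUSG00000022129.4, mm10 chr14:118012790-118052244, minus strand) had log2 CPM values of 12.13, 10.61 and 11.53 in the control libraries and 11.53, 12.22 and 10.95 in the Nr3c1-Foxp3Cre libraries. It ranked between 5 and 42 of 12153 genes by CPM in the 6 libraries, and its lowest values were in control library 2 and Nr3c1-Foxp3Cre library 3. *Tyrp1* (ENSMUSG00000005994.14, chr4:80834123-80851719, plus strand), whose protein oxidizes an intermediate made by DCT, had log2 CPM values of 11.00, 9.66 and 10.76 in controls and 10.44, 11.15 and 9.59 in Nr3c1-Foxp3Cre libraries. *Tyr* (tyrosinase, ENSMUSG00000004651.6, chr7:87424771-87493512, minus strand), the first and rate-limiting enzyme, had log2 CPM values of 8.25, 6.79 and 7.95 in controls and 7.54, 8.25 and 6.83 in Nr3c1-Foxp3Cre libraries. All 3 enzyme genes were highest in Nr3c1-Foxp3Cre library 2, and the groups overlapped for each.

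The genes for structural and transport proteins of the melanosome had the same lowest libraries. *Pmel* (ENSMUSG00000025359.10, chr10:128704195-128720238, plus strand), which encodes the fibril protein of the melanosome, had log2 CPM values of 10.95, 9.68 and 10.72 in controls and 10.49, 10.89 and 9.65 in Nr3c1-Foxp3Cre libraries. Control library 1 was highest and Nr3c1-Foxp3Cre library 3 lowest, and the groups overlapped. Exons of *Pmel* share 34 bases with *Cdk2* and 105 bases (4.58% of the exonic length of *Pmel*) with *Dgka*, both on the opposite strand, and with the strandedness of the kit not stated these reads cannot be told apart. *Mlana* (ENSMUSG00000024806.4, chr19:29697824-29708634, plus strand) encodes melan-A, a small membrane protein of early melanosomes. Its log2 CPM values were 7.83, 6.16 and 7.32 in controls and 7.12, 7.76 and 6.54 in Nr3c1-Foxp3Cre libraries. *Slc45a2* (ENSMUSG00000022243.10, chr15:11000721-11029233, plus strand), a transporter needed for normal melanosome pH, had log2 CPM values of 9.12, 7.56 and 8.67 in controls and 8.40, 9.12 and 7.39 in Nr3c1-Foxp3Cre libraries. *Mlana* was lowest in control library 2 and *Slc45a2* in Nr3c1-Foxp3Cre library 3, with overlap between groups for both.

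The receptor and channel genes were lower. *Gpr143* (ENSMUSG00000025333.10, chrX:152781921-152808646, plus strand) encodes the melanosomal receptor lost in ocular albinism. Its log2 CPM values were 4.74, 2.78 and 4.46 in controls and 3.48, 4.55 and 3.48 in Nr3c1-Foxp3Cre libraries, and it was the member with the widest range over libraries (1.96 on the log2 scale, 3.90-fold). Nr3c1-Foxp3Cre libraries 1 and 3 were within 0.0020 of each other in *Gpr143*, the smallest gap between the lowest pair of libraries and the rest for any of the 10 genes. *Trpm1* (ENSMUSG00000030523.18, chr7:64153835-64269775, plus strand), a cation channel gene of melanocytes that hosts *Mir211* in an intron, had log2 CPM values of 6.84, 5.50 and 6.86 in controls and 6.20, 6.79 and 5.41 in Nr3c1-Foxp3Cre libraries. Control libraries 1 and 3 and Nr3c1-Foxp3Cre library 2 lay together at the top for *Trpm1*, and the groups overlapped.

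The transcription factors had low to middle values. *Sox10* (ENSMUSG00000033006.10, chr15:79154908-79165240, minus strand) had log2 CPM values of 5.77, 4.52 and 5.30 in controls and 5.48, 5.42 and 4.67 in Nr3c1-Foxp3Cre libraries. *Mitf* (ENSMUSG00000035158.15, chr6:97807052-98021349, plus strand) had log2 CPM values of 4.83, 3.68 and 4.84 in controls and 4.53, 4.68 and 3.43 in Nr3c1-Foxp3Cre libraries. Both were lowest in control library 2 and Nr3c1-Foxp3Cre library 3 and overlapped between groups. *Mitf* is also expressed by immune cells such as macrophages and mast cells, so its RNA is not specific to pigment cells.

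**Figure D1:**
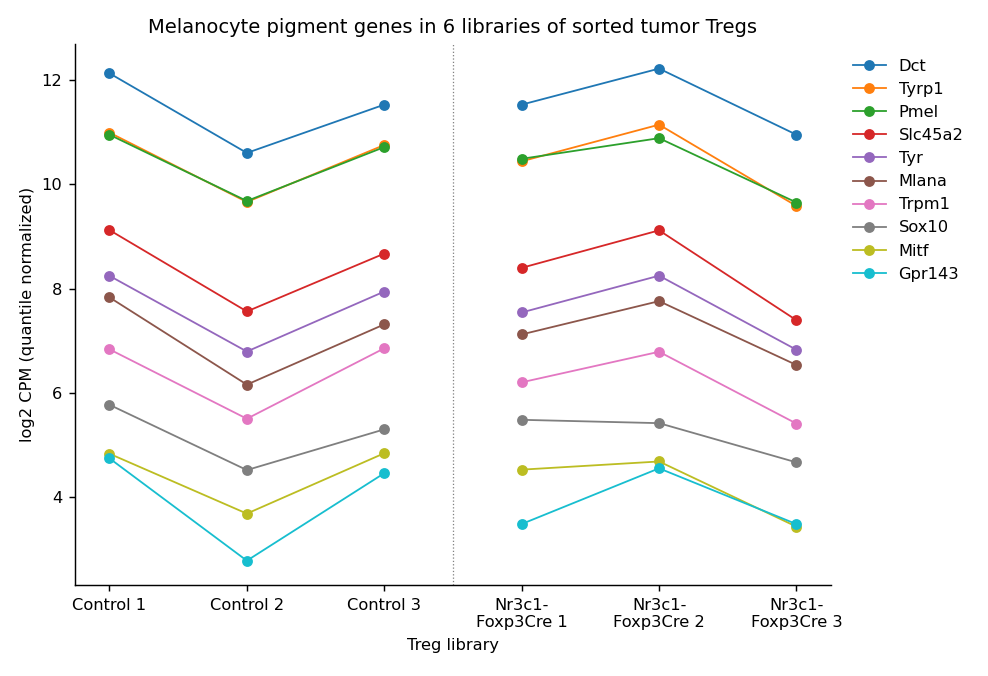
Log2 CPM (vertical axis, quantile normalized) of the 10 pigment genes in each of the 6 Treg libraries (horizontal axis), 1 point per library, with lines that join the points of 1 gene within a group as a guide and imply no order. Every gene has its 2 lowest values in control library 2 and Nr3c1-Foxp3Cre library 3.

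Control library 2 and Nr3c1-Foxp3Cre library 3 thus held the lowest values of all 10 genes, with 5 genes lowest in the former and 5 in the latter. This pattern was seen in 1226 of 12153 genes (10.1%). The highest value lay in control library 1 for 5 genes, in Nr3c1-Foxp3Cre library 2 for 3 and in control library 3 for 2. The mean log2 CPM of the 10 genes was 8.15, 6.70 and 7.84 in controls and 7.52, 8.08 and 6.79 in Nr3c1-Foxp3Cre libraries, a range of 1.45 on the log2 scale or 2.74-fold.

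On the linear scale, the sum of the 10 genes was 9833, 3651 and 7396 CPM in control libraries and 6612, 10227 and 4024 CPM in Nr3c1-Foxp3Cre libraries. The 10 genes therefore held 0.984%, 0.365% and 0.740% of all CPM in controls and 0.661%, 1.02% and 0.403% in Nr3c1-Foxp3Cre libraries. Both groups averaged the same share (0.696% ± 0.312 in controls and 0.696% ± 0.312 in Nr3c1-Foxp3Cre libraries, SD, n = 3 each), and the highest library exceeded the lowest 2.80-fold. *Dct*, *Tyrp1* and *Pmel* made up between 86.2% and 88.5% of the sum in every library. *Dct* alone made up 49.3% of the sum in Nr3c1-Foxp3Cre library 3, between 42.7% and 46.8% in 4 libraries, and the least in control library 3. In these bulk libraries, fewer cells of a type and less RNA per cell cannot be told apart.

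To set the genes beside each other, CPM was divided by the length of all exons of a gene in GENCODE M21. By mean CPM per kilobase over the 6 libraries, *Pmel* (628, from 351 to 866), *Tyrp1* (531, from 272 to 802) and *Dct* (530, from 264 to 811) were highest. *Mlana* followed with 143 (67.6 to 216) and *Slc45a2* with 124 (56.4 to 187). *Tyr* had 29.7 CPM per kilobase (15.6 to 42.8), *Sox10* 12.6 (7.52 to 17.9), *Gpr143* 8.48 (3.45 to 13.4), *Trpm1* 5.68 (2.89 to 7.86) and *Mitf* 3.49 (1.74 to 4.63). By the same measure, the T cell markers *Trac* (1168) and *Tnfrsf18* (913), which encodes GITR, lay above *Pmel*, *Tyrp1* and *Dct*. The other listed markers of Tregs and CD4+ T cells lay below *Pmel*, *Tyrp1* and *Dct*. These were *Ctla4* (309), *Cd3d* (245), *Cd4* (131), *Cd3e* (121), *Il2ra* (63.4), *Ptprc* (59.7), *Ikzf2* (12.7) and *Foxp3* (3.47). Among the 12130 genes with a length, the rank per kilobase of *Pmel* lay between 24 and 105, that of *Tyr* between 1544 and 3644 and that of *Mitf* between 7094 and 9416.

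Neighbors in this order were compared within libraries, since the ranges over libraries overlapped widely. *Pmel* exceeded *Tyrp1* per kilobase in 6 of 6 libraries, by 1.20-fold on average (from 1.03 to 1.29). *Dct* and *Tyrp1* changed places, at a mean ratio of 1.0 (from 0.821 to 1.24). *Mlana* exceeded *Slc45a2* in 6 of 6 libraries (1.18-fold, from 1.07 to 1.56), and *Sox10* exceeded *Gpr143* in 6 of 6 (1.58-fold, from 1.17 to 2.61). *Tyr* had 0.245 times the CPM per kilobase of its neighbor *Slc45a2* (from 0.228 to 0.283). Within the *Tyr* family, whose genes are not all neighbors, *Tyrp1* exceeded *Tyr* 17.9-fold per kilobase (from 16.9 to 18.8). The places of *Dct* and *Trpm1* depended on the length used. With the longest transcript in place of all exons, *Dct* was first with 903 CPM per kilobase against 675 for *Pmel*. *Trpm1* rose to 14.7, above *Sox10* with 13.8 and *Gpr143* with 10.7.

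The ratios among the genes varied far less over libraries than their levels. The SD of log2 CPM over the 6 libraries ran from 0.49 (*Sox10*) to 0.78 (*Gpr143*), with a median of 0.67, while the median over all genes was 0.21. The SD of the log2 ratio of a gene to the mean of the other 9 was smaller than the SD of its level for 10 of 10 genes. *Tyr* had the smallest SD of this ratio (0.059), with log2 ratios of 0.11, 0.11 and 0.12 in controls and 0.02, 0.18 and 0.04 in Nr3c1-Foxp3Cre libraries. *Pmel* (0.087), *Tyrp1* (0.10) and *Mlana* (0.13) came next. *Trpm1* (0.16), *Slc45a2* (0.17), *Dct* (0.19) and *Mitf* (0.22) lay in the middle, and *Sox10* (0.27) and *Gpr143* (0.34) varied most. The order did not follow level throughout, since *Mitf* had a lower mean log2 CPM (4.33) than *Sox10* (5.19). The median over the 10 genes was 0.16.

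**Figure D2:**
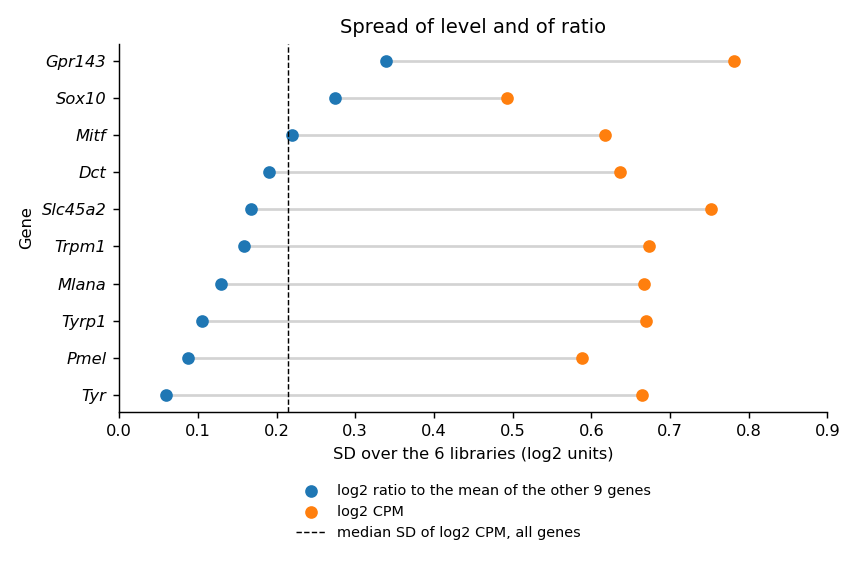
SD over the 6 libraries, in log2 units, of the level of each pigment gene (orange) and of its ratio to the mean of the other 9 (blue), with the genes on the vertical axis and a dashed line at 0.21, the median SD of level over all genes. The blue point lies to the left of the orange point for all 10 genes.

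Part of the spread in level came with the lowest libraries. Without control library 2 and Nr3c1-Foxp3Cre library 3, a choice made after their values were seen, the median SD of level was 0.32 and the median SD of ratio was 0.14, and the ratio varied less than the level for 8 of 10 genes. Over the 45 pairs of genes and all 6 libraries, the SD of the log2 ratio of CPM had a median of 0.22 and was under 0.2 for 18 pairs. *Tyrp1* over *Tyr* was the steadiest pair, with log2 ratios of CPM of 2.75, 2.87 and 2.81 in controls and 2.90, 2.90 and 2.76 in Nr3c1-Foxp3Cre libraries (SD 0.068). *Sox10* over *Gpr143* was the least steady, with log2 ratios of CPM of 1.03, 1.74 and 0.84 in controls and 2.0, 0.87 and 1.18 in Nr3c1-Foxp3Cre libraries (SD 0.48). *Dct* is singled out here with its values known. Its log2 ratio to the other 9 genes was 4.43, 4.34 and 4.10 in controls and 4.45, 4.60 and 4.62 in Nr3c1-Foxp3Cre libraries. The groups did not overlap in this ratio, with means of 4.29 ± 0.17 and 4.56 ± 0.09 (SD, n = 3 each). For each of the other 9 genes the groups overlapped in the same kind of ratio. In level, which is another measure, 7.41% of all genes had groups without overlap. No such share was computed for a ratio, and the nearest *Dct* ratios of the 2 groups were 4.43 and 4.45. No test was made of the ratio.

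For none of the pigment genes did a difference between genotypes pass the test. By limma over all 12153 genes, 0 of the 10 had an adjusted p below 0.05. Over all genes, 7 (0.0576%) were called in either direction, 1 higher and 6 lower in Nr3c1-Foxp3Cre libraries. Before adjustment, 0 of the 10 were below 0.05 (lowest 0.529, *Trpm1*), against 396 of all 12153 genes. The groups overlapped for all 10 genes, whereas 7.41% of all genes had groups without overlap. *Dct* was at 11.42 ± 0.77 log2 CPM in controls and 11.57 ± 0.64 in Nr3c1-Foxp3Cre libraries (SD, n = 3 each), a log2 fold change of 0.15 (SE 0.39, 95% interval from -0.74 to 1.03). *Trpm1* had the largest difference, at 6.40 ± 0.78 and 6.13 ± 0.69 (log2 fold change -0.26, SE 0.40, 95% interval from -1.18 to 0.65). *Pmel* was at 10.45 ± 0.68 and 10.34 ± 0.63 (log2 fold change -0.11, 95% interval from -0.92 to 0.71) and *Tyrp1* at 10.47 ± 0.71 and 10.39 ± 0.78 (log2 fold change -0.079, 95% interval from -1.0 to 0.85). The log2 fold change was -0.12 for *Tyr*, -0.15 for *Slc45a2*, 0.037 for *Mlana*, -0.16 for *Gpr143*, -0.24 for *Mitf* and -0.0074 for *Sox10*. The median over the 10 genes was -0.11, beside -0.0014 over all genes, with 2 genes higher and 8 lower. The intervals were wide, and over the 10 genes they ran from -1.27 to 1.03 on the log2 scale. The test was strict at this number of libraries, since *Nr3c1* itself, with a log2 fold change of -1.38, was not called.

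**Figure D3:**
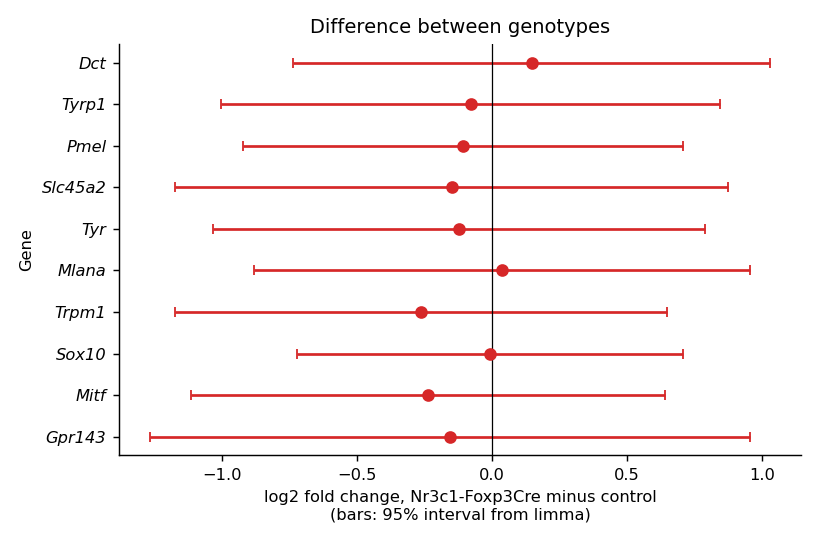
Log2 fold change of each pigment gene (horizontal axis, Nr3c1-Foxp3Cre minus control) with its 95% interval from the limma fit, genes on the vertical axis. All 10 intervals cross 0.

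Other genes of the pigment pathway gave a mixed picture. All 14 listed genes had values, 0 of 14 were called in either direction by limma, 6 were higher and 8 lower, and the median log2 fold change was -0.11. In 10 of 14, control library 2 and Nr3c1-Foxp3Cre library 3 were lowest, and in 7 of 14 the SD of the log2 ratio to the mean of the 10 pigment genes was under 0.3, which held for 2.13% of the 12143 other genes. *Gpnmb*, a melanosome and lysosome glycoprotein related to *Pmel*, had a mean log2 CPM of 10.74 (ratio SD 0.16). *Tspan10*, a tetraspanin, had 7.07 (0.046), *Slc24a5*, an ion exchanger of the pigment pathway, 6.99 (0.11), and *Rab38*, a small GTPase that directs enzymes to melanosomes, 5.78 (0.059). *Kit* (0.68) and *Ednrb* (0.95), receptors of melanocyte precursors, did not track the 10 genes, and their mean log2 CPM values were 3.23 and 2.61. *Mcoln3* (0.86), *Rab32* (0.55), *Oca2* (0.54), *Mc1r* (0.33) and *Mlph* (0.305) also had a ratio SD above 0.3. These and the other genes named beyond the 4 most abundant of a list were chosen after their values were seen.

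The machinery shared by lysosome-related organelles of many cell types was nearly even over libraries in its mean. All 27 listed genes had values, 0 of 27 were called, 13 were higher and 14 lower, and their mean log2 CPM lay between 5.55 and 5.68 in the 6 libraries. For 2 of 27, *Cd63* and *Myo5a* (0.29), the ratio SD was under 0.3, against 2.13% of genes outside the group. The lowest pair of libraries of the pigment genes was lowest in 3 of 27, against 10.1% of all genes. The exception among the most abundant was *Cd63*, a tetraspanin of late endosomes and melanosomes (mean log2 CPM 8.34, ratio SD 0.13), while *Ap3b1* (7.07) and *Ap3s1* (7.06), subunits of the AP-3 sorting complex, and *Dtnbp1* (6.85) of the BLOC-1 complex had ratio SDs of 0.73, 0.66 and 0.43. Of 13 neural crest and melanoma genes, 8 had values and 0 were called. The most abundant were *L1cam* (mean log2 CPM 5.23, ratio SD 0.89), *Erbb3* (4.34, ratio SD 0.90), *S100b* (3.27, ratio SD 0.21) and *Sox5* (2.67, ratio SD 0.58), and 1 of the 8, *S100b*, had a ratio SD under 0.3. The relatives of *Mitf* with values, *Tfeb* (mean log2 CPM 5.37, ratio SD 0.62) and *Tfe3* (5.77, ratio SD 0.71), varied little and did not follow it, and *Sox9*, the relative of *Sox10* with a value, had a mean log2 CPM of 1.25. *Tfec* and *Sox8*, the other relatives listed, had no value. Of the genes in these families and in that of *Tyr*, *Tyrp1* and *Dct*, 0 were called.

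Over all genes outside the group, the 10 most like it in pattern, by the SD of the log2 ratio to its mean over the 6 libraries, were *Tspan10* (0.046), *Aph1c* (0.052), *Fam174b* (0.058), *Rab38* (0.059), *Ggcx* (0.065), *Cyp2j6* (0.073), *Serpinh1* (0.082), *Sgce* (0.083), *Gsta1* (0.089) and *Arhgef40* (0.094). The median of this SD over the other genes was 0.68, and 78 genes lay under 0.2. *Serpinh1*, which encodes a collagen chaperone, was the most abundant of these 10, with log2 CPM values of 8.44, 6.95 and 8.01 in controls and 7.67, 8.38 and 6.90 in Nr3c1-Foxp3Cre libraries. *Gsta1* has near-identical paralogs, so its value is uncertain. The 6 libraries share their normalization, and this likeness is a description.

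Markers of other cells were read from the same libraries. The mean log2 CPM of the 10 Treg and CD4+ T cell markers was 8.38, 8.88 and 8.63 in controls and 8.80, 8.47 and 8.68 in Nr3c1-Foxp3Cre libraries, highest in control library 2, where the pigment genes were lowest. Their sum lay between 5421 and 7136 CPM in controls and between 5779 and 6530 CPM in Nr3c1-Foxp3Cre libraries. *Tnfrsf18* (mean log2 CPM 10.44), *Trac* (10.09), *Ptprc* (10.09) and *Ctla4* (9.45) were the most abundant of them, and 0 of 10 had the lowest pair of libraries of the pigment genes. The 10 macrophage and monocyte markers, led by *Lyz2* (mean log2 CPM 7.78), *C1qb* (5.64), *Cd68* (5.21) and *C1qc* (5.15), had a mean log2 CPM of 4.85, 4.14 and 4.54 in controls and 3.56, 4.67 and 3.88 in Nr3c1-Foxp3Cre libraries, and their sum lay between 381 and 574 CPM in controls and between 275 and 553 CPM in Nr3c1-Foxp3Cre libraries. All 10 had a lower mean in Nr3c1-Foxp3Cre libraries (median log2 fold change -0.51), and 0 were called. Whether cells of this kind had a part in the pigment gene values was not tested.

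Fibroblast markers, unlike the pigment genes, separated the genotypes by their mean. Within the controls, both lists were highest in library 1 and lowest in library 2. The mean log2 CPM of the fibroblast markers was 5.02, 4.04 and 4.65 in controls and 2.84, 3.02 and 3.46 in Nr3c1-Foxp3Cre libraries, without overlap. By single genes, 2 of 6 had groups without overlap (*Col1a1* and *Col1a2*), against 7.41% of all genes. *Pdgfrb*, at -3.96, lowered the mean of Nr3c1-Foxp3Cre library 2. By sum, that library was the highest of its group. The sum of the fibroblast markers lay between 191 and 467 CPM in controls and between 79.0 and 173 CPM in Nr3c1-Foxp3Cre libraries. The 4 most abundant were *Col3a1* (mean log2 CPM 6.66), *Col1a2* (5.17), *Col1a1* (4.77) and *Dcn* (3.98). All 6 had a negative log2 fold change (median -1.55) and 0 were called, with *Col1a1* at -1.87 (limma adjusted p = 0.120) and *Col1a2* at -1.69 (adjusted p = 0.271), while the pigment genes had a median of -0.11. Without control library 2, *Col1a1* and *Col1a2* were called by limma, at adjusted p = 0.0171 and 0.0121.

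**Figure D4:**
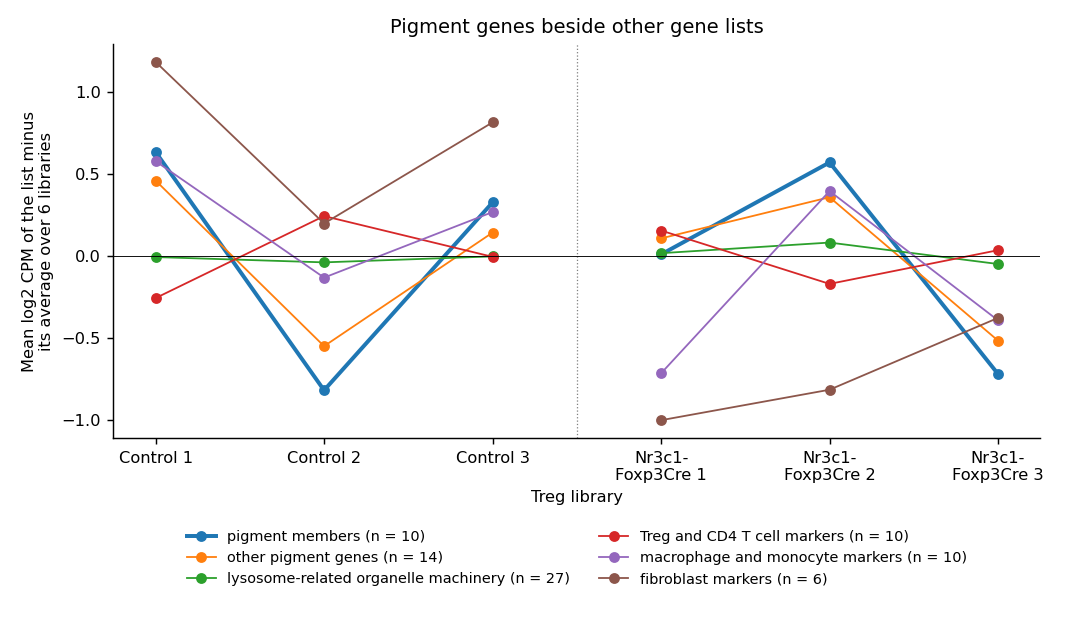
Mean log2 CPM of each gene list minus its own average over the 6 libraries (vertical axis, log2 units) in each Treg library (horizontal axis), with 1 line per list as a guide that implies no order. The 10 pigment genes and the 14 other pigment genes fall together in control library 2 and Nr3c1-Foxp3Cre library 3, the organelle machinery stays near 0, and the fibroblast markers separate the genotypes.

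The remaining marker lists are given by how many of their genes had values. Dendritic cell markers had values for 5 of 7 genes, with *Cd74* at a mean log2 CPM of 10.02, *H2-Ab1* at 7.67, *Zbtb46* at 4.86 and *Xcr1* at 3.14, and B cell markers for 2 of 5 (*Ighm* 9.39 and *Cd79b* 4.12). Erythroid markers had values for 5 of 5, led by *Hba-a2* (5.07), *Hbb-bs* (4.97), *Hba-a1* (4.52) and *Hbb-bt* (2.31), with the alpha globin pair and the beta globin pair each made of near-identical copies. All 5 had a lower mean in Nr3c1-Foxp3Cre libraries (median log2 fold change -0.65), and 0 were called. Schwann cell markers had values for 3 of 4 (*Mbp* 6.42, *Egr2* 4.25 and *Pmp22* 3.50), endothelial markers for 3 of 5 (*Pecam1* 5.71, *Kdr* 1.98 and *Vwf* 1.92), CD8+ T and NK cell markers for 1 of 5 (*Cd8b1* 3.51) and keratinocyte markers for 1 of 4 (*Krt10* 0.85). The 6 neutrophil and 5 mast cell markers had no value in the table. Of the 108 genes with a value among the 141 on all lists, the 10 pigment genes included, 0 were called by limma and 5 were below an unadjusted p of 0.05 (*Col1a1*, *Col1a2*, *Col3a1*, *L1cam* and *Pecam1*). Of all 12153 genes, 396 were below an unadjusted p of 0.05.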

How the data were processed

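RNA-Seq was performed by the authors on 6 libraries, 3 per genotype. Reads were trimmed with Cutadapt, aligned with STAR to mm10 and quantified with RSEM on GENCODE M21. Genes with low CPM were filtered, and the deposited log2 CPM values were quantile normalized by the authors with limma. From these values, limma 3.58.1 in R 4.3.3 was fitted with genotype as the only term and with a trend of variance on mean level. Adjustment followed Benjamini-Hochberg over all 12153 genes (threshold 0.05). The voom weights of the study were not recomputed, since they need counts. Exonic lengths came from GENCODE M21, to which 12130 genes matched by identifier. Genes named were all members, up to 4 genes of each list with the highest mean, list genes called, and the 10 genes most like the members. *Nr3c1*, *Foxp3*, *Cd4*, *Cd3d*, *Cd3e*, *Il2ra*, *Ikzf2*, *Kit*, *Ednrb*, *Mcoln3*, *Rab32*, *Oca2*, *Mc1r*, *Mlph*, *Myo5a*, *Pdgfrb* and the genes that overlap *Pmel* fall outside this rule. They were named with their values known. Members and lists were chosen with earlier results of these data known. Alternatives were no trend, robust variances, sample quality weights, a pseudocount of 1 CPM, a filter at a mean log2 CPM of 1, median centering, a replicate block, leaving out each library, and longest transcripts. Leaving out control library 2 and Nr3c1-Foxp3Cre library 3 together was added after the data were seen. The test script was tested on simulated data.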

Additional observations from a re-analysis of the deposited data

How the results depend on the processing

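None of the 10 pigment genes was called by limma in any alternative, and the lowest adjusted p in any of them was 0.431 (*Trpm1*). Leaving out 1 library each in turn, the log2 fold change ran from -0.26 to 0.50 for *Dct*, from -0.48 to 0.32 for *Tyrp1*, from -0.56 to 0.23 for *Tyr*, from -0.49 to 0.24 for *Pmel*, from -0.43 to 0.40 for *Mlana*, from -0.59 to 0.31 for *Slc45a2*, from -0.76 to 0.22 for *Gpr143*, from -0.71 to 0.097 for *Trpm1*, from -0.35 to 0.28 for *Sox10* and from -0.62 to 0.15 for *Mitf*, so that none kept its sign throughout. With sample quality weights, where control library 3 had a weight of 7.47 and the others 0.52 to 0.86, all 10 log2 fold changes were negative: -0.70 for *Trpm1*, -0.60 for *Mitf*, -0.60 for *Gpr143*, -0.42 for *Tyr*, -0.40 for *Slc45a2*, -0.38 for *Tyrp1*, -0.37 for *Pmel*, -0.19 for *Mlana*, -0.12 for *Sox10* and -0.0021 for *Dct*.

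Over all genes, 1 was higher and 6 were lower. The counts were 0 and 0 without a mean-variance trend and 7 and 12 with sample quality weights. The fits that left out 1 library called from 0 to 3 higher and from 0 to 5 lower: 3 and 5 without control library 1, 2 and 4 without control library 2, 0 and 1 without Nr3c1-Foxp3Cre library 1 or 3, and 0 and 0 without control library 3 or Nr3c1-Foxp3Cre library 2. Of the list genes, 2 were called lower with sample quality weights and from 0 to 2 without 1 library (*Col1a1* and *Col1a2*). For these counts the cause was not tested. With the replicate block the counts were 0 higher and 0 lower, and no call of a pigment gene changed. Libraries of the same number did not deviate together (mean correlation -0.157, against 0.0784 for other numbers), so the numbers were not read as pairs.

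The mean level of the pigment genes moved by less than the spread between libraries under every alternative run for it. Most of these alternatives could hardly move it, so little is learned from this. A mean over 6 libraries shifts little when 1 is left out, and median centering changes little in quantile normalized values. Depth is unknown, and with 3 libraries per group and an SD of 0.45 to 1.06 within groups, small differences could not be detected.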
